A study of Piaractus mesopotamicus with 9 samples.

Results

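The miRNA composition of starved control myotubes of pacu (Piaractus mesopotamicus), a South American freshwater fish, was described from small RNA libraries. Its members were the 3 CTR libraries of the 9 libraries in the series, and only reference entries of zebrafish were read, which carry the prefix dre- and make up 373 of the 3579 entries in the count table. The table lists mature miRNAs of 13 teleost species, and its full column sums were 10.7 times the zebrafish sums in each CTR library, so a single species was kept to limit repeated counting. Letters and arms were pooled by miRNA number, which gave 144 families.

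The cells were isolated from fast-twitch muscle of juvenile pacus, cultured for 8 days until myotubes had formed, and then kept in amino acid-free medium. CTR cells stayed 36 h in this medium and received neither amino acids nor IGF1, while the cells of the other 6 libraries, which are not compared here, had 12 h in it before a supplement was given for 24 h. Muscle of several fish was pooled for each culture, laminin-coated plates were used to favour myoblasts, and the sources used here describe no sorting of cells. The study describes 3 independent cultures, although the labels do not tie a library to a culture. In a bulk sample of this kind, fewer cells of a type and less RNA per cell cannot be told apart.

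miRNAs are small RNAs that pair with messenger RNAs through a short seed near their 5′ end and lower their translation or stability. A hairpin precursor yields a mature product from its 5p arm and another from its 3p arm, and usually 1 of them is kept. In vertebrate skeletal muscle, miR-1, miR-133 and miR-206 are known as muscle-specific regulators of differentiation and proliferation, and miR-499 lies within a slow myosin gene. Fibroblasts and other mesenchymal cells are known for miR-21, miR-199 and miR-214.

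The zebrafish entries held 11242885, 12074547 and 7627252 counts in CTR replicates 1, 2 and 3. By counting error alone, a family without a count in a library can hold a share of up to 2.67e-05%, 2.48e-05% or 3.93e-05% (3 counts). Shares are shares of counts over zebrafish entries and not of molecules, and all values of families and lists below refer to them. The libraries were not copies of each other: over entries that averaged 10 counts or more, chi-square per degree of freedom was 424 (CTR replicates 1 and 2), 193 (1 and 3) and 96.1 (2 and 3). Log2 shares correlated at 0.995 to 0.998 (Pearson) across 97 to 99 families, which are not independent replicates.

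The counts were led by a single miRNA. The family miR-21 had 6244983, 6467773 and 4123381 counts, or 54.4% ± 1.03 of all zebrafish counts (SD, n = 3). It rested on a single entry, dre-miR-21, whose arm is not given in its name. In mammals miR-21 is known as an abundant miRNA of dividing and stromal cells. The family miR-22, known from mammalian heart and skeletal muscle, was next with 1172714, 1540741 and 895955 counts (11.6% ± 1.17). miR-21 exceeded it in each library, by 4.20 to 5.33 times.

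miR-146 and miR-199 followed. miR-146, which damps inflammatory signalling in mammals through Irak1 and Traf6, had 801189, 735879 and 512959 counts (6.65% ± 0.520). miR-199, a mesenchymal miRNA, had 693164, 671006 and 431524 counts (5.79% ± 0.326). These families kept the first 4 ranks in the same order in each of the 3 libraries. Together with the fifth family of each library they held 81.4% ± 0.492 of the counts.

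The next 7 families in order included growth and cell cycle regulators. miR-100, which is known to lower Igf1r and Mtor in mammals, held 2.87% ± 0.333. let-7, a family tied to differentiation through Lin28 and Hmga2, held 2.75% ± 0.0579. miR-27, which limits Pax3 in mouse muscle progenitors, held 2.41% ± 0.289. miR-125, the vertebrate relative of nematode lin-4, held 2.11% ± 0.148, and miR-26, which targets Ezh2 in mouse myoblasts, held 1.66% ± 0.114. The pair miR-221 and miR-222 share a seed and repress the cell cycle inhibitor p27 in mammals, and they held 1.30% ± 0.0540 and 0.980% ± 0.148.

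Ranks 12 to 20 were taken by miR-16, miR-10, miR-23, miR-143, miR-148, miR-181, miR-20, miR-99 and miR-128. miR-16, a repressor of cyclins in mammals, held 0.947% ± 0.0919, and miR-10, encoded in the Hox clusters, held 0.936% ± 0.0767. miR-23 held 0.820% ± 0.0421. miR-143, known from smooth muscle, held 0.580% ± 0.128, and miR-148 held 0.566% ± 0.0854. The shares of miR-181, miR-20, miR-99 and miR-128 were 0.267% ± 0.0152, 0.265% ± 0.0312, 0.265% ± 0.0251 and 0.203% ± 0.0091.

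**Figure D1:**
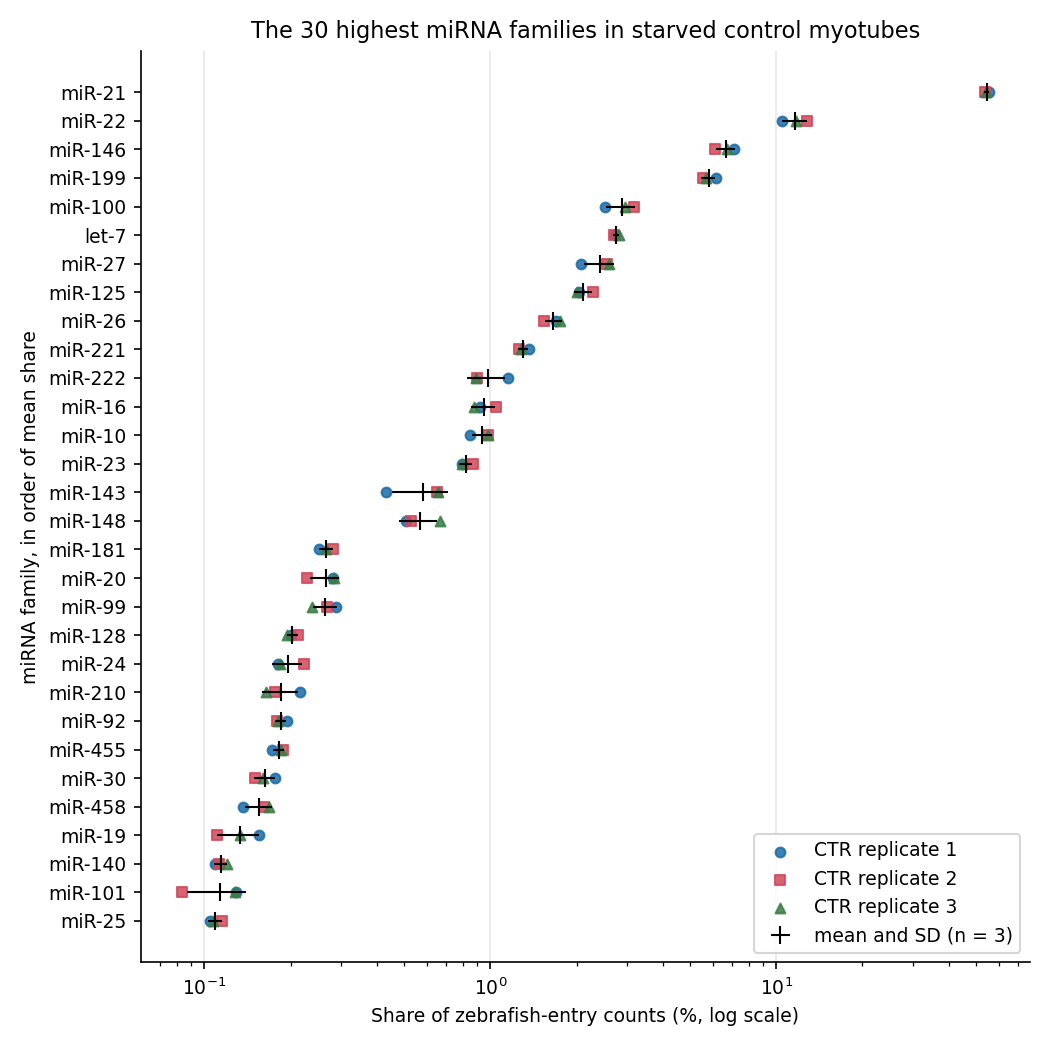
Share of zebrafish-entry counts (%, log axis) of the 30 families with the highest mean share, with a point for each CTR library and a black bar for the mean and SD (n = 3). miR-21 lies at 54.4% and miR-22 at 11.6%, and the points of the 3 libraries overlap between several neighbours from miR-100 downwards.

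The order of the families was compared step by step. A step was taken as larger than the spread where the family was higher in all 3 libraries and the mean difference exceeded the larger SD. Of the 20 steps from miR-21 down to miR-24, 13 met this and 7 did not. The 7 steps were those between miR-100 and let-7, miR-222 and miR-16, miR-16 and miR-10, miR-143 and miR-148, miR-181 and miR-20, miR-20 and miR-99, and miR-128 and miR-24. The same 10 families held the first 10 ranks in each library, and 19 families were among the first 20 in all 3.

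The concentration of counts was alike in the 3 libraries. A single family was enough for 50% of the counts in each library, 4 families for 75%, 9 for 90%, 31 for 99% and 52 for 99.9%. The effective number of families (the inverse Simpson index, which equals the number of families if all were equally abundant) was 3.12 ± 0.0893 (SD, n = 3), and the Shannon entropy was 2.73 ± 0.0315 bits. Without miR-21, the effective number was 8.34 ± 0.303, and 14 families were needed for 90% of the remaining counts. Counted as single mature entries, 90% of the counts took 13.7 ± 0.577 entries.

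**Figure D2:**
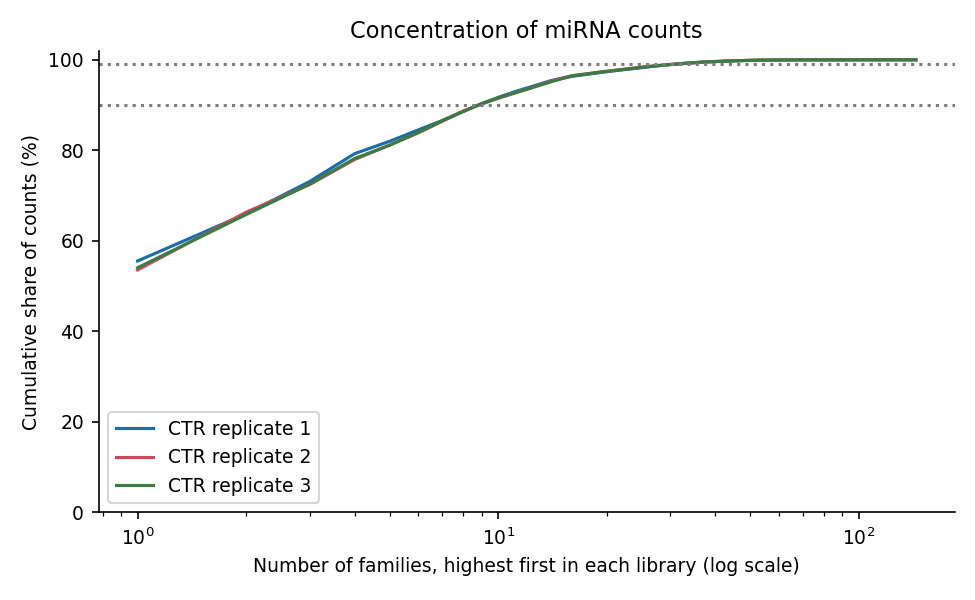
Cumulative share of zebrafish-entry counts (%) against the number of families, ranked from the highest within each library (log axis), with a line for each CTR library and dotted lines at 90% and 99%. The lines nearly coincide and cross 90% at 9 families and 99% at 31.

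By mean count, 2 families had at least 1000000 counts per library and 9 had between 100000 and 1000000, and these classes held 66.0% and 26.5% of the counts. A further 20 families had between 10000 and 100000 counts (6.48% in all) and 22 between 1000 and 10000 (0.876%). Another 21 families had between 100 and 1000 counts (0.0683%) and 23 between 10 and 100 (0.00926%). The last 18 detected families had a mean above 0 and under 10 counts. In each library 113 or 114 families had at least 1 count, and 111 to 113 were expected after thinning every library to the 7627252 counts of the smallest.

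Most of the leading families rested on few of their entries. dre-miR-22a-3p held 96.2% ± 0.148 of the miR-22 counts, dre-miR-146a 99.9% ± 0.0121 of miR-146, dre-miR-100-5p nearly all of miR-100 (99.996%) and dre-miR-221-3p 96.8% ± 0.247 of miR-221. dre-miR-125b-5p held 91.6% ± 0.242 of miR-125, dre-miR-26a-5p 88.4% ± 0.526 of miR-26 and dre-miR-27b-3p 83.6% ± 0.392 of miR-27. Smaller parts of miR-27 lay on dre-miR-27d (7.12% ± 1.05), dre-miR-27c-3p (4.92%), dre-miR-27a-3p (2.19%) and dre-miR-27b-5p (1.67%). In miR-125, dre-miR-125c-5p held 4.36% and dre-miR-125a 4.02%, and in miR-26, dre-miR-26b held 11.4% ± 0.534. The second zebrafish copy of miR-146, dre-miR-146b, had 446, 581 and 374 counts, against 800743, 735298 and 512585 for dre-miR-146a. For near-identical paralogs, it cannot be told from the counts which copy pacu expressed.

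let-7 and miR-199 were spread more widely. Of the let-7 counts, dre-let-7a held 30.6% ± 1.18, dre-let-7g 27.6% ± 0.527, dre-let-7j 18.5% ± 0.325, dre-let-7f 6.68% ± 0.403 and dre-let-7h 5.83% ± 0.262, and the other 6 entries had 3.93% or less each. These were dre-let-7b (3.93%), dre-let-7d-5p (2.82%), dre-let-7i (2.37%), dre-let-7c-5p (1.41%) and the 3p entries of let-7c and let-7d. The entries dre-let-7c-3p and dre-let-7d-3p had the same counts (260, 309 and 174), so these 2 entries cannot be told apart here. The miR-199 counts were divided between the arms, with 60.1% ± 1.06 on dre-miR-199-5p and 39.2% ± 1.00 on dre-miR-199-3p.

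The muscle-specific miRNAs were low in these cultures, which were labelled as muscle cells. The families miR-206, miR-1, miR-133 and miR-499, in order of mean share, were each detected in all 3 libraries, and their sum was 4938, 6564 and 5211 counts, or 0.0555% ± 0.0122 (SD, n = 3). The shares per library were 0.0439% (95% exact binomial interval 0.0427 to 0.0452), 0.0544% (0.0531 to 0.0557) and 0.0683% (0.0665 to 0.0702) in CTR replicates 1, 2 and 3. The libraries thus differed by more than counting error, with the lowest share in replicate 1. miR-21 exceeded miR-206, the highest of the 4 families in mean share, by 1674 to 2956 times.

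Within this group, miR-206 and miR-1 were level with each other, with miR-1 the higher in CTR replicates 1 and 2 and miR-206 in replicate 3. miR-206, which shares its seed with miR-1 and is restricted to skeletal muscle in mammals, had 2113, 2903 and 2463 counts and stood at rank 45. miR-1 had 2160, 2948 and 2231 counts, and the ratio of miR-206 to miR-1 was 0.978 to 1.10 over the libraries. miR-133, known to act on myoblast proliferation, had 583, 526 and 418 counts, and miR-1 had 4.88 ± 1.03 times its counts. miR-499 had 82, 187 and 99 counts, the lowest of the group, and ranked 70 of the 144 families.

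The miR-133 counts came from 2 of the 7 entries in the main. dre-miR-133b-3p had 291, 234 and 201 counts (47.5% ± 2.76 of the family) and dre-miR-133a-3p 213, 181 and 150 (35.6% ± 1.09). dre-miR-133a-5p had 57, 74 and 46 counts, and dre-miR-133c-3p had none. The remaining 3 entries, dre-miR-133a-2-5p, dre-miR-133c-5p and dre-miR-133b-5p, had between 0 and 19 counts in a library.

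Families known from other cell types were compared with the muscle-specific group by their summed share. The mesenchymal pair miR-199 and miR-214, which come from a common primary transcript in vertebrates, held 5.83% ± 0.335, nearly all of it miR-199, since miR-214 had 5910, 4817 and 2416 counts. miR-21, also named above for mesenchymal cells, was not counted in this group. The smooth muscle pair miR-143 and miR-145 held 0.587% ± 0.128, with 863, 963 and 507 counts for miR-145. The cartilage-associated families miR-140 and miR-455 held 0.296% ± 0.0124. By summed share, all 3 of these groups were above the muscle-specific group in each library. Alone, miR-145 (0.00743% on average) was below that group in each library. miR-214 (0.0414% on average) was below it in CTR replicates 2 and 3 and above it in replicate 1. Whether cells other than myotubes gave these counts was not tested.

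The remaining marker groups were below it. The 11 neural families held 0.0353% ± 0.00464, most of it from miR-218 (1372, 2217 and 1287 counts), miR-129 (662, 1104 and 676) and miR-153 (729, 780 and 527). miR-138 had 157, 134 and 65 counts and miR-212 had 154, 139 and 88. The neuronal miR-124 had 80, 118 and 56 counts and miR-9 had 88, 73 and 60. miR-126, an endothelial miRNA, held 0.0142% ± 0.0017. The liver, gut and pancreas group held 0.00565% ± 0.000415, with 339, 251 and 169 counts for the pancreatic miR-216, 202, 154 and 108 for the intestinal and hepatic miR-192, and 62, 159 and 79 for the hepatic miR-122. The islet miRNA miR-375 had 41, 39 and 31 counts. The epithelial group of 8 families held 0.00154% ± 6.5e-05, and its highest member by mean share, miR-183, had 50, 61 and 29 counts. miR-200, a repressor of Zeb factors, had 23, 20 and 14 counts, and the skin-associated miR-203 had 31, 49 and 36. The germ cell and early embryo group held 0.00125% ± 4.3e-05, nearly all of it miR-430, which clears maternal messenger RNAs in zebrafish embryos.

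Blood-cell families had the lowest summed share of the marker groups. The 5 families summed to 85, 65 and 83 counts (0.000794% ± 0.000277). The erythroid miR-451 had 54, 47 and 63 of them, its cluster partner miR-144 had 3, 1 and 2, the lymphocyte miR-150 had 20, 11 and 9, and the leukocyte families miR-142 and miR-223 had at most 6 counts in a library. miR-155, which is induced in activated immune cells of mammals, had 1, 3 and 1 counts, whereas the other inflammatory family, miR-146, stood at rank 3.

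**Figure D3:**
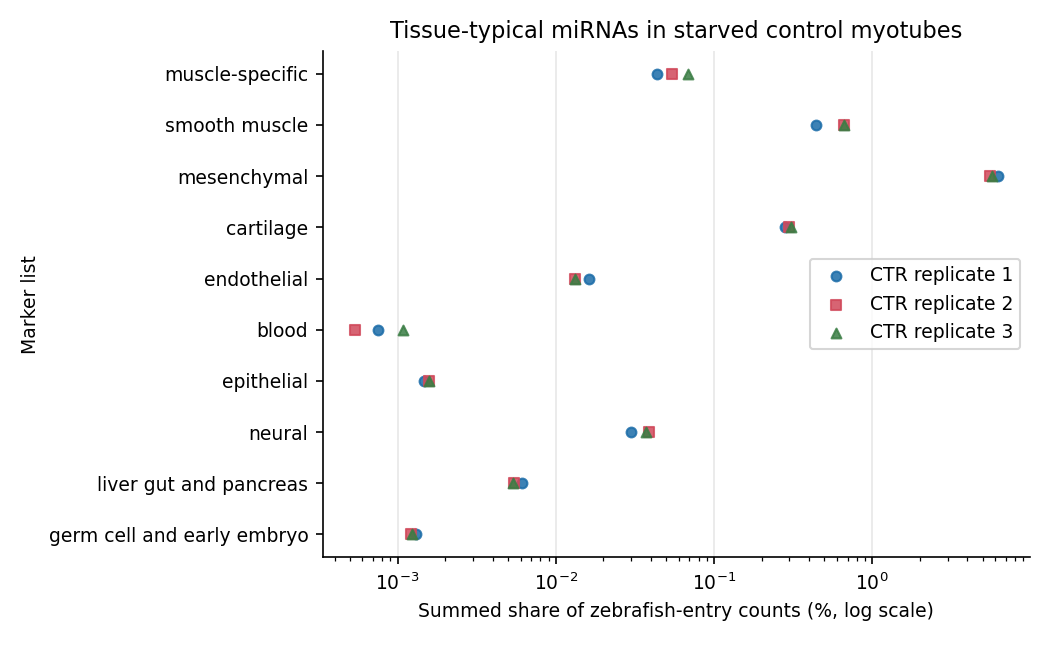
Summed share of zebrafish-entry counts (%, log axis) of miRNAs known from 10 tissues or cell types, with a point for each CTR library. The muscle-specific group (0.0555% on average) lies below the mesenchymal (5.83%), smooth muscle (0.587%) and cartilage (0.296%) groups and above the other 6. The mesenchymal group holds miR-199 and miR-214 but not miR-21.

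Further listed groups that are not markers of a tissue or cell type were compared with the muscle-specific group. The miR-130, miR-301 and miR-454 group (0.0414% ± 0.00206) lay below it. The other groups in this paragraph lay above it by summed share. Alone, their members miR-17 (0.0176%), miR-18 (0.0361%) and miR-152 (0.00139%) lay below it. miR-99, miR-100 and miR-125, which lie together in clusters with let-7 in vertebrate genomes, held 5.25% ± 0.437, and miR-100 had 11.0 ± 1.98 times the counts of miR-99. The zebrafish level of miR-99 lay within 10% of that in 6 of 10 other species. Over the entries of Ictalurus punctatus, miR-100 held 2.91% and miR-99 0.694%. miR-23, miR-24 and miR-27, which form common clusters, held 3.43% ± 0.324, with miR-27 12.4 ± 1.54 times miR-24. The miR-15 and miR-16 pair held 1.02% ± 0.0874. The families numbered as in the proliferative miR-17-92 cluster held 0.637% ± 0.0623, led by miR-20 and miR-92. Their letters were pooled, so this sum is not limited to that cluster. miR-148 and its seed relative miR-152 held 0.568% ± 0.0854, of which miR-152 had 148, 174 and 108 counts.

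Other families with known roles in muscle, metabolism or matrix followed. miR-181, which rises during mouse myoblast differentiation, is given above at 0.267%. miR-210, a hypoxia-induced miRNA named here after its value was seen, held 0.186% ± 0.0266 and miR-30 held 0.162% ± 0.0138. miR-29, which represses collagen messenger RNAs in mammals, held 0.0783% ± 0.0172. miR-130, miR-301 and miR-454, which share a seed, summed to 0.0414% ± 0.00206. Of the 19 families numbered miR-462, miR-731 and from miR-722 to miR-740, 8 had no count, and the sum was 0.0779% ± 0.00822, led by miR-730 with 4407, 3960 and 2712 counts, miR-737 with 2688, 2369 and 1205, and miR-722 with 2174, 2027 and 1227.

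The spread between libraries was larger than counting error throughout. Among the 53 families that averaged 1000 counts or more, the coefficient of variation of the share was 9.61% at the median, and in all 53 it exceeded the value that counting alone would give (at most 2.61%). It was smallest for miR-21 (1.90%), let-7 (2.11%), miR-196 (2.84%), miR-363 (4.03%) and miR-221 (4.15%). At 54.4% of the counts, miR-21 is a large part of its own total, which narrows the spread of its share. Its place in this order is therefore not read as a lower variability. It was largest for miR-31 (33.0%), miR-2184 (28.8%), miR-206 (27.2%), miR-214 (25.4%) and miR-17 (24.8%). miR-31, which holds back Myf5 in quiescent satellite cells of mice, had 2102, 3956 and 2865 counts and, like miR-206, its lowest share in CTR replicate 1. miR-2184, miR-214 and miR-17 had their highest share there, with 3619, 2519 and 1489 counts for miR-2184.

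Arm use was read from entries whose names give the arm. Entries without an arm in the name, dre-miR-21 among them, held 67.1% ± 1.31 of the counts and were left out. Of the 115 pairs of arms with the same number and letter, 65 had a mean of at least 100 counts. The 5p arm was the larger in all 3 libraries in 30 of them and the 3p arm in 33, and the larger arm differed between libraries in 2. A strong preference, with over 90% of the pair on the same arm in each library, was seen for 23 pairs towards 5p and 23 towards 3p. In 32 pairs the preferred arm took over 99%. Pacu reads were matched to zebrafish entries, so a low or missing arm and a mismatch with the reference cannot be told apart here.

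The 10 pairs with the highest counts showed preferences in both directions. The 3p arm led in miR-22a, where 5p held 3.74% ± 0.145, in miR-27b (5p 1.96% ± 0.206), in miR-221 (5p 3.22% ± 0.247) and in miR-222a (5p 12.5% ± 1.46). The 5p arm led in miR-100 (99.996% ± 0.00115), miR-125b (99.9% ± 0.0155), miR-26a (99.7% ± 0.0121), miR-10b (99.6% ± 0.0795) and miR-16c. dre-miR-16c-3p had no count in any library, where 3 counts would be 0.00799% of the smallest pair sum. miR-199 was divided, with 410316, 411058 and 257957 counts on 5p and 282848, 259948 and 173567 on 3p.

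A few pairs used both arms about equally. Their 5p share lay between 40% and 60% in each library for miR-30e (50.3% ± 1.53), miR-22b (52.7% ± 3.41) and miR-145 (46.5% ± 1.63), and in miR-30e and miR-22b the larger arm differed between libraries. miR-30e had 2227, 2446 and 1722 counts on 5p and 2303, 2475 and 1587 on 3p. In miR-22b, with 660, 877 and 481 counts on 5p and 690, 707 and 410 on 3p, CTR replicate 1 leaned to 3p and the other 2 libraries to 5p. In miR-22a, 3p held over 96% in each library. The entries dre-miR-22b-5p and dre-miR-22b-3p held only 0.0556% and 0.0502% of the miR-22 counts. Whether reads of miR-22a were counted under them was not tested.

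Both arms were also common in miR-210, miR-455 and miR-140, which were picked out here after their values were seen. miR-210 had 61.1% ± 2.94 on 5p, miR-455 had 37.5% ± 1.02 and miR-140 had 31.4% ± 1.82. Among the muscle-specific miRNAs, miR-206 was on 3p but for a single 5p count in each library. miR-133b had 0.369% ± 0.345 on 5p, while miR-133a had 28.8% ± 4.61, from 71, 93 and 57 counts on 5p and 213, 181 and 150 on 3p. miR-499 was on 5p at 98.1% ± 1.87. miR-126a and miR-126b had the same 5p counts (194, 166 and 90), so the 93.0% on 5p in miR-126b rests on counts that cannot be told apart from those of miR-126a.

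**Figure D4:**
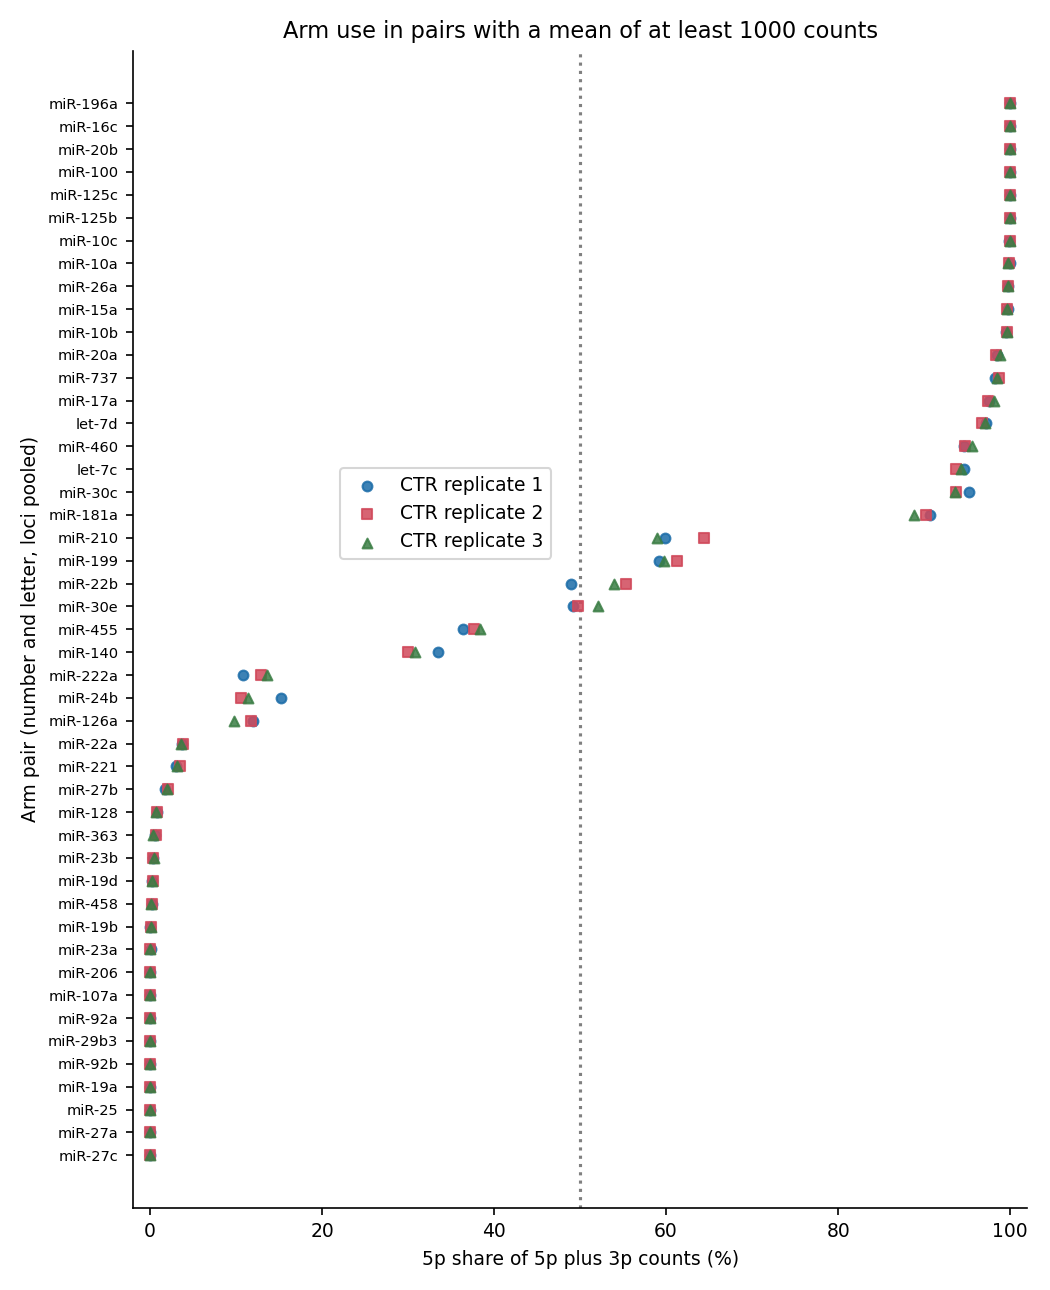
Share of 5p counts (%) in the 47 pairs of arms with a mean of at least 1000 counts over both arms, with a point for each CTR library and a dotted line at 50%. Most pairs lie near 0% or 100%, and miR-22b and miR-30e lie on both sides of 50%.

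A total of 29 families had no count in any CTR library, and they held 39 of the zebrafish entries. They were miR-137, miR-219, miR-461, miR-723, miR-725, miR-726, miR-729, miR-732, miR-733, miR-736, miR-740, miR-1788, miR-2185, miR-2186, miR-2189, miR-2191 to miR-2198, miR-3906, miR-7132, miR-7145, miR-7146, miR-7148 and miR-7149. miR-137, known from neurons, and miR-219, known from oligodendrocytes, were the only members of the marker groups among them. In the other 6 libraries of the series, 25 of the 29 had no count and the other 4 had at most 2 counts in all. They were not detectable at this depth with zebrafish entries, which does not show that they were absent from the cells.

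The entries of other species gave a check on the families at 0. For 19 of the 29 families no other species had an entry of the same number. Of the 10 with such entries, miR-137 was the only family above 3 counts, with 21, 29 and 10 counts in abu-miR-137 of Astatotilapia burtoni, against 0 in both zebrafish entries. Just above the families at 0, and named here for that reason after their values were seen, miR-187 had a single count in CTR replicate 1 and miR-738 a single count in each of CTR replicates 2 and 3.

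The entries of the other species also showed how far a level rests on the reference. The miR-21 counts of zebrafish (6244983, 6467773 and 4123381) were found in the same numbers in the family sums of 10 of the 13 species, zebrafish included. They were 6455884, 6711551 and 4303745 in Salmo salar, which lists a second miR-21, 572150, 676483 and 415595 in Gadus morhua, and 45887, 56583 and 34880 in Oryzias latipes. miR-21 was therefore the first family over the entries of 11 species, and miR-146 was over the entries of Gadus morhua and Oryzias latipes. These 11 are not separate measurements, since the same reads can be counted under each species. The zebrafish miR-22 entries had a mean of 1.20e+06 counts, against 639 over those of Gadus morhua.

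The counts of 3 muscle-specific families were alike over most references, but this is no independent check on their level. The same reads can be counted under entries of several species. The muscle-specific group had the same counts (4741, 6431 and 5059) over the entries of Astatotilapia burtoni, Metriaclima zebra, Neolamprologus brichardi and Oreochromis niloticus. The zebrafish level lay within 10% of that in 10 of 12 other species for miR-1, in 9 of 10 for miR-206 and in 8 of 10 for miR-499, but in 0 of 12 for miR-133. The zebrafish miR-1 entry had a mean of 2446 counts, against 0.667 over the entries of Ictalurus punctatus. Over the entries of Oryzias latipes the group summed to 264, 382 and 310 counts. Over those of Gadus morhua it summed to 4635, 6372 and 4996 counts, close to the zebrafish sums, and its share of 0.149% ± 0.0335 is of a smaller total (a mean of 3.68e+06 counts, against 1.03e+07 over zebrafish entries). For 11 of the 20 leading families, the zebrafish level lay within 10% of that in fewer than 6 other species, and for miR-27, miR-16 and miR-23 within 10% of none. For miR-27, miR-16 and miR-23 the zebrafish sum was above that of every other species. The species also differ in which entries they list. The miR-221 mean of Astatotilapia burtoni (129890 counts) equals that of dre-miR-221-3p alone. No sequences were used here, so differences in bases and in the entries listed cannot be told apart.

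**Figure D5:**
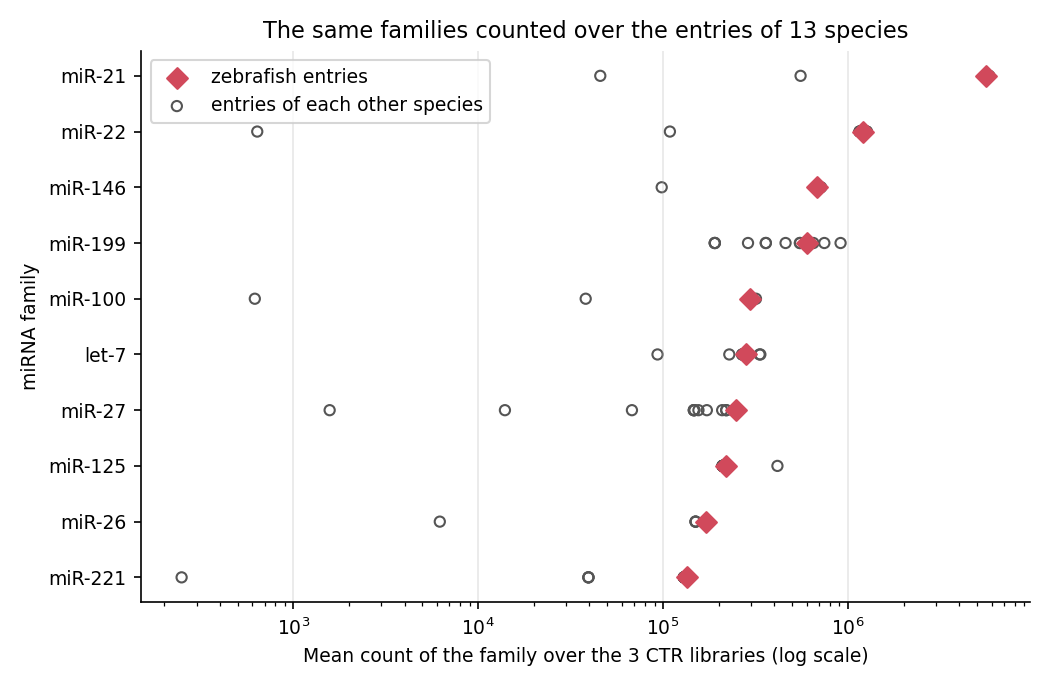
Mean count over the 3 CTR libraries (log axis) of the 10 leading families, summed over zebrafish entries (filled diamonds) and over the entries of each other species that lists the family (open circles). For miR-21 most circles lie under the zebrafish diamond, and those of Gadus morhua and Oryzias latipes lie far to its left.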

How the data were processed

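Small RNA libraries were prepared from total RNA of cultured pacu muscle cells with a TruSeq small RNA kit. Per the study's methods, the authors trimmed reads with Trimmomatic, kept reads over 17 nucleotides and mapped them with Bowtie2 to mature miRNAs of 13 teleost species. The submitters' processing notes also name FastQC 0.11.8, DESeq2 and the build GRCz11. The counting of reads with several matching entries is not stated there. Sums over all entries of a single CTR library (81685427 to 129187426) exceeded the reads the study reports for the whole CTR group. Reads were thus counted under more than 1 entry. Within the zebrafish entries, a read may likewise be counted more than once in a pooled family. The deposited counts are raw read counts per entry, with 1 column for each library. The deposited normalised signal, in which the authors divided the counts by a size factor per library (1.04, 1.09 and 0.695 for CTR replicates 1 to 3) and left out low entries, served only as an alternative.

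The 373 zebrafish entries of the 3 CTR columns were read with Python 3.11.15, pandas 2.3.3, numpy 2.4.6 and scipy 1.17.1, and plotted with matplotlib 3.10.9. They held 7627252 to 12074547 counts per library. Entries were pooled by miRNA number. Shares are given as mean ± SD over libraries, and exact Clopper-Pearson intervals at 95% and floors of 3 counts cover counting error only. No molecular identifiers are described, so reads are not independent molecules. Scripts were tested on simulated data. No groups were compared and no p-value was computed, since a single group was described.

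The text names the 20 families with the highest mean share, members above 1% of their family in the 10 highest families, and families at 0. It names the 10 arm pairs with the highest counts and pairs with a 5p share of 40% to 60% or a larger arm that differs between libraries. The 5 most and 5 least variable families among those averaging 1000 counts or more are also named. Of the families of the marker lists, only some are named, and the others enter the sums alone. The members and lists were chosen with earlier results of these data known. Alternatives were other species' entries, other units of counting, other minimum counts, the normalised values and each library left out.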

Additional observations from a re-analysis of the deposited data

Results flagged for a closer look

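Counts were found in CTR libraries for miRNA numbers that have no zebrafish entry, and whose entries are thus not part of the shares given above. Of 594 such numbers, 18 had any count and 14 had a mean of at least 10 counts with more than 3 in each library. The highest were abu-miR-106 with a mean of 2121 counts, ipu-miR-7550 with 999 and oni-miR-10955 with 828. The prefix gives the species of an entry: abu stands for Astatotilapia burtoni, ipu for Ictalurus punctatus, oni for Oreochromis niloticus, ccr for Cyprinus carpio, mze for Metriaclima zebra and ssa for Salmo salar. miR-106 is a relative of miR-17 in vertebrates. Whether reads of these entries were also counted under zebrafish entries was not tested. Means of 97.7 counts for ccr-miR-551, 94.3 for abu-miR-3120, 64.3 for mze-miR-33a and also 64.3 for ipu-miR-7553 followed. Lower means were those of abu-miR-10545-5p (55.3), oni-miR-10926 (54.0), abu-miR-147 (39.7), ipu-miR-7565 (23), ipu-miR-7547 (18), ssa-miR-1338-3p (13.3) and ipu-miR-3618 (13). In addition, abu-miR-137 had a mean of 20 counts, although both zebrafish entries of miR-137 had none.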

How the results depend on the processing

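Against 54.4% over zebrafish entries, the miR-21 share was 61.5% over the entries of Cyprinus carpio, 56.6% of Salmo salar and 56.7% over all entries. In alternatives chosen after seeing the data, where fru stands for Fugu rubripes, gmo for Gadus morhua, nbr for Neolamprologus brichardi, ola for Oryzias latipes, pny for Pundamilia nyererei and tni for Tetraodon nigroviridis, it was 60.8% (prefix abu), 62.4% (fru), 15.1% (gmo), 59.4% (mze), 63.7% (nbr), 2.08% (ola), 58.5% (oni), 59.1% (pny) and 62.4% (tni). The muscle-specific share, 0.0555% in zebrafish entries, was 0.0294% over Ictalurus punctatus entries and 0.122% of counts without miR-21, and 0.0299% (fru), 0.149% (gmo), 0.0149% (ola) and 0.0299% (tni) in the added alternatives. The entries of fru and tni hold 2 of the 4 families, and those of gmo had nearly the zebrafish muscle counts in a smaller total. Families for 90% of counts numbered 9, against 5.33 for Cyprinus carpio and 13.7 for single entries. The effective number was 3.12, against 3.01 (Ictalurus punctatus), 2.47 (Cyprinus carpio), 2.90 (Salmo salar) and 2.90 (all entries). Families at 0 numbered 29, or 47 with a mean under 10 counts.

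With each library left out in turn, miR-21 held 53.8% to 54.8%, the muscle-specific group 0.0491% to 0.0613%, and the effective number was 3.08 to 3.17. Families for 90% stayed at 9, families at 0 were 29 to 30, detected families 113 to 113.5 and pairs led by 5p 28 to 30. All 57 such shares of the other 19 leading families moved by less than 1 SD. For a mean of 3 libraries this could not have come out otherwise, so nothing is drawn from it. The normalised values and the minimum of 10 counts moved none of these 19. A size factor per library cancels in a share, and the entries left out hold too few counts, so neither could have moved one. Over the entries of Ictalurus punctatus 12 of the 19 moved, over those of Cyprinus carpio 13, of Salmo salar 9 and over all entries 14. The alternatives by shared seed and by hairpin were not run, since no sequences were used here, and arm use was not run for other species. No paired analysis was possible because the results come from no test. For families at 0, the floors given above cover counting error only and not reads that match no zebrafish entry. For miR-137, abu-miR-137 had 21, 29 and 10 counts against 0 in both zebrafish entries.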
